A study of Mus musculus with 9 samples.

Results

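The Wnt ligands described here are 10 mouse genes, Wnt1, Wnt2b, Wnt4, Wnt5a, Wnt5b, Wnt7b, Wnt9a, Wnt10a, Wnt10b and Wnt11, taken by name from a table of raw read counts for 43472 genes. The table holds 19 Wnt ligand genes in all, and the 10 were a named choice among them. Each of the 10 had at least 1 read. Only 7 had enough reads to be tested, since Wnt1, Wnt2b and Wnt7b did not pass a filter on low counts (a minimum count of 10). RNA was sequenced from bone (Bone, labelled osteoblasts), mature cartilage (MatC, labelled mature chondrocytes) and immature cartilage (ImC, labelled immature chondrocytes), with 3 libraries per tissue. All libraries came from untreated C57BL/6J mice, with no transgene or allele named, and the labels give no age, stage or anatomical site. No label ties a replicate to an animal of its own; the error behind each p-value is therefore the scatter of these libraries, which may be technical.

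Wnt ligands are secreted, lipid-modified glycoproteins that bind Frizzled receptors on nearby cells. With the co-receptors Lrp5 and Lrp6 they stabilise beta-catenin, which acts with Tcf and Lef factors to switch on target genes. With other co-receptors, such as Ror2, they act without beta-catenin on cell polarity and movement. In the skeleton, beta-catenin signalling favours osteoblast formation, while Wnt5a and Wnt5b are known for their part in the order and pace of chondrocyte maturation in the growth plate.

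Depth lay between 7913684 reads (Bone replicate 2) and 23159547 reads (MatC replicate 2). The mitochondrial genome supplied 7.24% to 8.91% of reads in Bone, 33.7% to 82.3% in MatC and 32% to 55% in ImC. MatC replicate 3 stood apart: its mitochondrial share was the highest and it detected 14940 genes, where no other library detected fewer than 17535. Levels are scaled reads (CPM), and 3 reads made 0.849 CPM in MatC replicate 3 but at most 0.257 CPM elsewhere. The tissue labels were checked against marker genes. Summed osteoblast markers stood at 38500 to 44100 CPM in Bone, 847 to 15600 in MatC and 154 to 377 in ImC. Summed immature chondrocyte markers stood at 367 to 777 CPM in Bone, 8460 to 20500 in MatC and 13000 to 17300 in ImC, and hypertrophic markers at 1070 to 1090, 2820 to 12600 and 153 to 671. Of the calls over all genes, 22.5% were higher in Bone than in MatC, 46% higher in Bone than in ImC and 70.2% higher in MatC than in ImC. With library size as the only scaling these shares were 40.1%, 59% and 53.4%, and the median log2 fold change of all genes shifted from near 0 to 0.95, 0.46 and -0.51.

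Transcripts of Wnt5a, Wnt5b, Wnt4 and Wnt11 were at their highest in mature cartilage, where each of the 3 libraries stood above every library of the other tissues. Over all genes tested, 11.4% were higher without overlap in MatC than in ImC, and 17.7% lower without overlap in Bone than in MatC. By edgeR, Wnt5a was called in no comparison and Wnt4 was not called in MatC over ImC. The Wnt11 call in MatC over ImC ended in 12 of 19 alternatives. Wnt10b was near absent from immature cartilage, and its libraries from bone and mature cartilage overlapped. Wnt10a was highest in bone. In bulk tissue, fewer cells of a type and less RNA per cell cannot be told apart. The plot of levels by library shows these patterns, with the low and uneven reads of Wnt1, Wnt2b, Wnt7b and Wnt9a beside them.

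**Figure D1:**
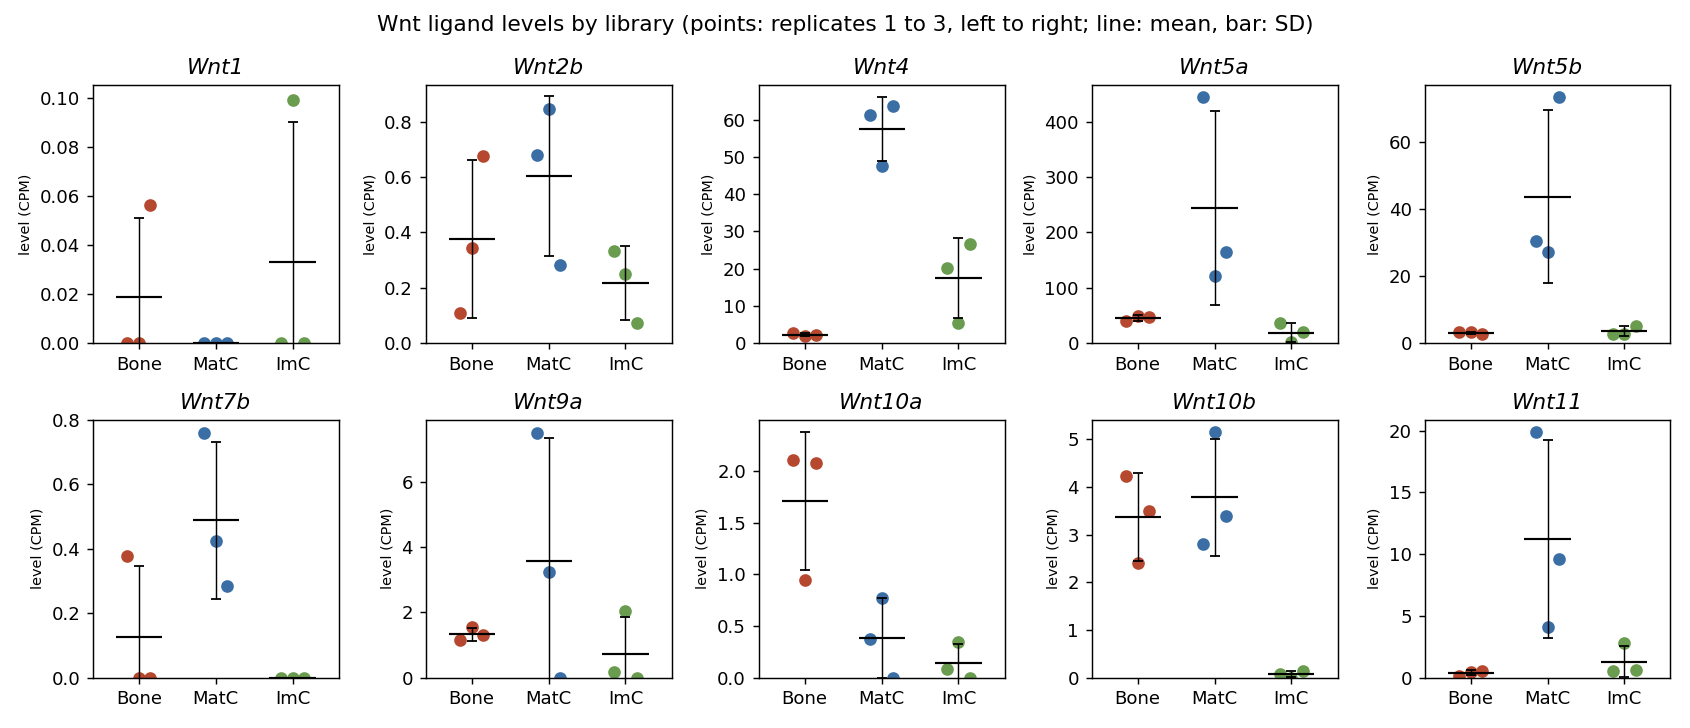
Level of each of the 10 Wnt ligand genes in CPM (y axis, from 0, own scale per gene) in Bone, MatC and ImC. Points are the 3 libraries of a tissue, the line is their mean and the bar their SD; Wnt4 in MatC sits at 47.7 to 63.6 CPM, above every other library.

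Wnt5b (chromosome 6, 119432531 to 119544347, GRCm38, minus strand), a ligand made by prehypertrophic chondrocytes of the growth plate, had the clearest peak in mature cartilage. It stood at 3.25, 3.25 and 2.76 CPM in Bone replicates 1 to 3, at 30.5, 27.2 and 73.5 CPM in MatC, and at 2.67, 2.58 and 5.20 CPM in ImC. The highest value was in MatC replicate 3, the library with the fewest genes detected, and all MatC libraries stood above all others. Its log2 fold change was 3.64 ± 0.48 (SE) in MatC over ImC (edgeR quasi-likelihood test, Benjamini-Hochberg adjusted p = 0.00352) and -3.81 ± 0.48 in Bone over MatC (adjusted p = 0.00209). Without MatC replicate 3 the Bone over MatC value was -3.20 (adjusted p = 0.00391). Bone and ImC overlapped, with a log2 fold change of -0.17 ± 0.45 (adjusted p = 0.796), whose sign turned to 0.40 with library size only. The same 3 MatC libraries enter both comparisons in which Wnt5b was called. A coding gene, Fbxl14, lies on the opposite strand within Wnt5b, and the library kit does not mark strand; Fbxl14 itself held 692 reads in Bone, 436 in MatC and 631 in ImC.

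Wnt4 (chromosome 4, 137277489 to 137299726, plus strand), a ligand of prehypertrophic cartilage and of developing joints, was lower in bone than in either cartilage. Its levels were 2.65, 1.97 and 2.14 CPM in Bone, 61.4, 47.7 and 63.6 CPM in MatC, and 20.2, 5.46 and 26.7 CPM in ImC. No library of one tissue overlapped another tissue. Wnt4 fell by 4.66 ± 0.55 on the log2 scale in Bone relative to MatC (adjusted p = 0.00151) and by 2.94 ± 0.51 relative to ImC (adjusted p = 0.003). MatC over ImC gave 1.72 ± 0.48 (adjusted p = 0.0555), which was not called. That value was called without ImC replicate 3 (2.17, adjusted p = 0.0336), with no filter on low counts, with DESeq2 and with limma-voom, and adjusted p ran from 0.00756 to 0.222 over 19 alternatives. Wnt4 had no overlapping gene in the annotation.

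Wnt11 (chromosome 7, 98835112 to 98855195, plus strand), a ligand best known for signalling without beta-catenin in cell movements, stood at 0.162, 0.428 and 0.563 CPM in Bone, at 19.9, 4.09 and 9.62 CPM in MatC, and at 0.500, 2.78 and 0.641 CPM in ImC. MatC replicate 1 was the highest library and ImC replicate 2 the highest outside MatC. Wnt11 fell by 4.85 ± 0.92 on the log2 scale in Bone relative to MatC (adjusted p = 0.0154), and this call ended without any 1 of the Bone libraries (adjusted p = 0.0918, 0.0895 and 0.0612 without replicates 1, 2 and 3). Without MatC replicate 1 the value was -4.10 (adjusted p = 0.0363). In MatC over ImC the log2 fold change was 3.06 ± 0.82 (adjusted p = 0.049). That call is at the threshold and ended in 12 of 19 alternatives, with adjusted p up to 0.167 when MatC replicate 1 was left out (log2 fold change 2.33). It also ended without ImC replicate 1 or 3, without MatC replicate 3 and without any 1 Bone library, while without ImC replicate 2 the value was 4.28 (adjusted p = 0.0294). Bone over ImC gave -1.79 ± 0.86 (adjusted p = 0.135), which was not called.

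The stretches just upstream of the RefSeq start sites (build GRCm38.p6) are shown for Wnt4, Wnt5b and Wnt11, which were called lower in Bone than in MatC, and for Wnt10b, which was not. Of the 10 members, 7 had an entry. Up to 250 bases are printed 5′ to 3′ on the gene's own strand, from the most upstream start where there were several. Bases inside the GENCODE gene are left out, which leaves 104 for Wnt4, the part of its window farthest from the RefSeq start. Capitals mark matches on either strand to 5 motifs: the RUNX core TGTGGT, the TCF/LEF core CTTTGA, the SOX core ACAAAG, the GC box GGGCGG and the TATA box TATAAA. The SOX and TCF/LEF cores share 5 letters when read on opposite strands, but no single site can match both.
Wnt4, chr4:137277385-137277488, plus strand: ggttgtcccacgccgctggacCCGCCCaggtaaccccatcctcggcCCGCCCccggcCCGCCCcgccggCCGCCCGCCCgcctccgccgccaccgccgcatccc
Wnt5b, chr6:119544348-119544597, minus strand: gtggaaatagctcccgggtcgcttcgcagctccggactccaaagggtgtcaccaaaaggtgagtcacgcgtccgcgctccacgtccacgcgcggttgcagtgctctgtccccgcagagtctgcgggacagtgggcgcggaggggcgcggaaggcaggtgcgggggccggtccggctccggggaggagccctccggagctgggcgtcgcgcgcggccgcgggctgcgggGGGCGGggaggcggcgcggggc
Wnt11, chr7:98834862-98835111, plus strand: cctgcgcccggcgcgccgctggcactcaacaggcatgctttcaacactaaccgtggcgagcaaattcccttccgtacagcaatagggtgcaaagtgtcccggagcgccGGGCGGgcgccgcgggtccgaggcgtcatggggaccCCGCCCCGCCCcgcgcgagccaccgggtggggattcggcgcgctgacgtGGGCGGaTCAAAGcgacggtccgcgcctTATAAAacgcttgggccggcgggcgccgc
Wnt10b, chr15:98778151-98778400, minus strand: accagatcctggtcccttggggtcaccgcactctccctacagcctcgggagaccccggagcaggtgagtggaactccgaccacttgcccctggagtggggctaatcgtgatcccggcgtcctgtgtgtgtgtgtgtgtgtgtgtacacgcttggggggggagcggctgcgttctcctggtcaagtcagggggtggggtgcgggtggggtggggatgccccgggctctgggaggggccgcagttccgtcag

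Matches differed between the 4 printed stretches, and GC boxes that share bases were each counted. The Wnt4 stretch held 5 GC boxes, between 229 and 172 bases before its RefSeq start, and no other match. The full 250-base window of Wnt4 held 8 matches, all GC boxes. The Wnt5b stretch held 1 GC box, 22 to 17 bases before its start, and the Wnt10b stretch held none of the 5 motifs. At the last of 3 Wnt5b starts, not printed, the window held GC boxes and a TCF/LEF core on the same strand. That core lay 71 to 66 bases before that start. Wnt11 held 4 GC boxes, a TATA box 29 to 24 bases before its start and a TCF/LEF core on the opposite strand, 50 to 45 bases before it. Of 32851 windows of 250 bases upstream of mouse genes, 32.7% held a GC box, 12.4% a TATA box, 13.8% a TCF/LEF core, 14% a RUNX core and 16.5% a SOX core. The full windows of Wnt4, Wnt5b, Wnt11 and Wnt10b were 85.2%, 75.2%, 70.8% and 66.8% G and C. The median over all windows was 52.4%. Shares matched for base content were not computed, so the GC boxes are not shown to be unusual. The motif matches are letters in a window and were not tested as binding sites.

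Wnt5a (chromosome 14, 28504750 to 28527448, plus strand), the ligand most tied to signalling without beta-catenin and to growth plate cell order, had more reads than any other member in Bone and MatC. It stood at 39.2, 49.1 and 47.2 CPM in Bone, at 445.1, 121 and 165 CPM in MatC, and at 36, 0.745 and 19.4 CPM in ImC. MatC replicate 1 was far above the other MatC libraries and ImC replicate 2 far below the other ImC libraries, yet the 3 tissues did not overlap. The log2 fold change was 3.71 ± 1.01 in MatC over ImC (adjusted p = 0.0508), -2.43 ± 0.95 in Bone over MatC (adjusted p = 0.16) and 1.28 ± 0.92 in Bone over ImC (adjusted p = 0.315), and edgeR called none. MatC over ImC was called in 5 of 19 alternatives, among them DESeq2 (adjusted p = 0.000577), no filter on low counts (0.00025), limma-voom (0.0249) and the fit without ImC replicate 2 (3.14, adjusted p = 0.0243). Bone over MatC was called in 4, with DESeq2 (0.0458), with no filter (0.0168), with only the groups compared (0.0214) and without ImC replicate 2 (-2.43, adjusted p = 0.0219). Summed perichondrium and fibroblast markers were also highest in MatC replicate 1, at 1620 CPM against 626 and 508 in replicates 2 and 3. In ImC those sums were 369, 657 and 34.5 CPM in replicates 1, 2 and 3, so the library lowest in Wnt5a was the highest in them; their part in the Wnt5a levels was not tested.

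Wnt10b (chromosome 15, 98770712 to 98778150, minus strand), known for promoting osteoblast formation over fat cells, stood at 4.22, 2.40 and 3.49 CPM in Bone, at 2.80, 5.15 and 3.39 CPM in MatC, and at 0.0833, 0 and 0.142 CPM in ImC. ImC held 3 reads in all against 168 in Bone and 122 in MatC. The ratio of pooled, scaled reads was 54 for Bone over ImC (95% counting interval 18.2 to 264) and 60.8 for MatC over ImC (20.3 to 299). Both were called (adjusted p = 0.0017 and 0.00586), also in each of 19 alternatives. Bone and MatC overlapped, with a log2 fold change of -0.17 ± 0.62 (adjusted p = 0.906). That value ran from -0.35 to 0.94 over 19 alternatives, with library size only at the high end, so equal levels are not shown.

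Wnt10a (chromosome 1, 74791516 to 74804179, plus strand), a close relative of Wnt10b known from tooth and skin appendage development, held 39, 11 and 37 reads in Bone, 5, 11 and 0 in MatC, and 1, 7 and 0 in ImC. These equal 2.11, 0.942 and 2.08 CPM in Bone, 0.379, 0.775 and 0 CPM in MatC, and 0.0833, 0.347 and 0 CPM in ImC. Every Bone library was above every cartilage library. In MatC replicate 3, however, the limit that a count of 0 allows (3 reads) is 0.849 CPM, close to Bone replicate 2. Wnt10a rose by 3.39 ± 1.07 on the log2 scale in Bone relative to ImC (adjusted p = 0.0362). That call ended with library size only, without ImC replicate 1 or 3 and without any 1 Bone library (highest adjusted p 0.111), and the value was 5.16 without ImC replicate 2 (adjusted p = 0.0231). Bone over MatC gave 1.92 ± 1.01 (adjusted p = 0.289) and MatC over ImC 1.47 ± 1.10 (adjusted p = 0.446).

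Wnt9a (chromosome 11, 59306928 to 59333552, plus strand), a ligand of forming joints and of prehypertrophic cartilage, stood at 1.14, 1.54 and 1.30 CPM in Bone, at 7.50, 3.24 and 0 CPM in MatC, and at 0.167, 2.04 and 0 CPM in ImC. Bone libraries were close together, while each cartilage group held 1 library with 0 reads, and all groups overlapped. Log2 fold changes were -1.49 ± 1.31 in Bone over MatC, 0.78 ± 1.32 in Bone over ImC and 2.27 ± 1.35 in MatC over ImC, with adjusted p = 0.547, 0.682 and 0.332. In ImC, replicate 2 was highest in Wnt9a, in Wnt11 and in summed joint and articular markers, at 51.9 CPM against 16.1 and 15.1. In MatC, the joint sum was highest in replicate 3, at 88.5 CPM, where Wnt9a had 0 reads. The part of joint tissue in these levels was not tested.

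The 3 members with too few reads for a test were near the limit of detection. Wnt2b, a canonical ligand, held 2, 4 and 12 reads in Bone, 9, 12 and 1 in MatC, and 4, 5 and 1 in ImC, with all tissues overlapping. Wnt7b, a ligand that promotes osteoblast formation, held 7, 0 and 0 reads in Bone, 10, 6 and 1 in MatC and 0 in every ImC library. Pooled over libraries, MatC stood at 8.47 times and Bone at 2.25 times a floor of 3 reads over the ImC group (0.0649 CPM). These ratios take the MatC and Bone reads as exact, so they are not lower limits. All Bone reads of Wnt7b came from replicate 1. Wnt1, whose loss causes brittle bones in mice and people, held 1 read in Bone, 0 in MatC, where a floor of 3 reads over the group allows up to 0.097 CPM, and 2 in ImC. No difference in Wnt1 was detectable at this depth.

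**Figure D2:**
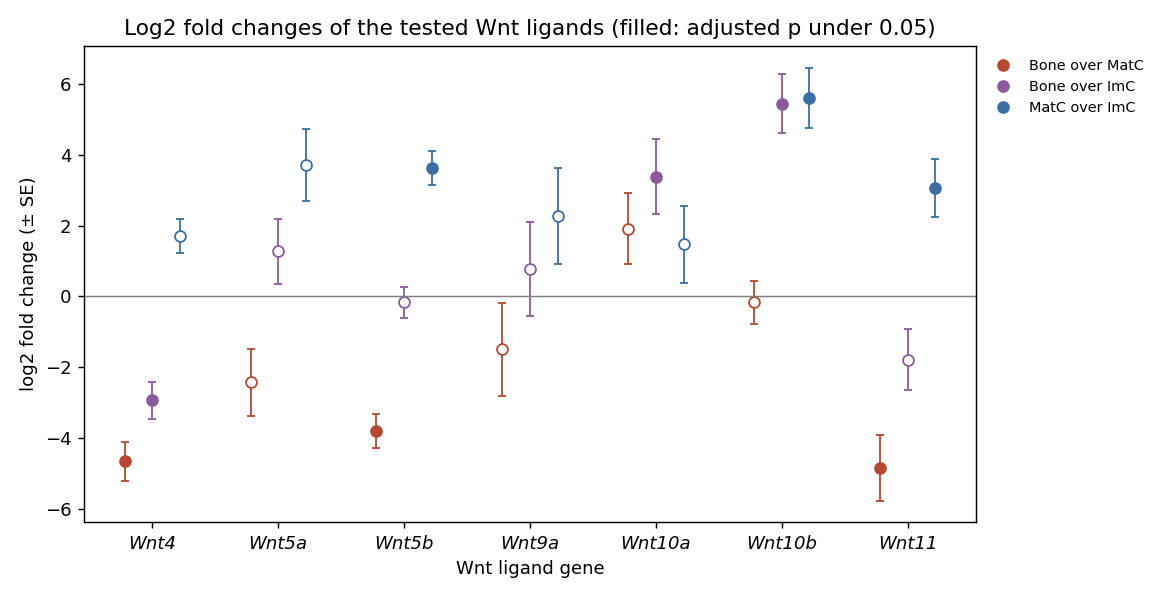
Log2 fold change (y axis, points ± SE) of the 7 tested ligands (x axis) in Bone over MatC, Bone over ImC and MatC over ImC. Filled points have an adjusted p under 0.05; Wnt4, Wnt5b and Wnt11 lie between -4.85 and -3.81 in Bone over MatC.

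By comparison, the 10 members fell out as follows. In Bone against MatC 0 were called higher and 3 lower, 4 were tested without a call and 3 were not tested; over all 14257 genes tested, 6.05% were called, 1.36% higher and 4.69% lower. At an unadjusted p under 0.05 still 0 members were higher in Bone than in MatC, and DESeq2 and limma-voom also called 0 higher. In Bone against ImC 2 were called higher and 1 lower, where 31.1% of all genes tested were called, 14.3% higher and 16.8% lower; those 3 calls were among 7 tested members. In MatC against ImC 3 were called higher and 0 lower, where 7.71% of all genes were called, 5.41% higher and 2.29% lower. Here too 0 members were lower at an unadjusted p under 0.05 and by DESeq2 and limma-voom. Groups without overlap were found for 1 member higher and 4 lower in Bone against MatC (background 17.9% and 17.7%), for 3 and 1 in Bone against ImC (30.1% and 28.8%), and for 5 and 0 in MatC against ImC (11.4% and 12.5%). Members that passed the filter did so where they were high, so these counts only describe them. Marker lists moved in the same comparisons: 5 of 8 osteoblast, 5 of 7 perichondrium and fibroblast and 5 of 6 endothelial markers were called higher in MatC than in ImC, as were 5 of 6 hypertrophic markers. In Bone against MatC, 7 of 7 immature chondrocyte and 4 of 6 hypertrophic markers were called lower, and in Bone against ImC 8 of 8 osteoblast markers were called higher and 7 of 7 immature chondrocyte markers lower. Their part in the ligand calls was not tested. The MatC libraries enter the first and the last comparison.

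Levels of different genes were set beside each other as CPM per kb of annotated exon. These rest on reads spread along the exons, while the amplification kit copies RNA from its poly(A) end; the effect of that on the order was not tested. In Bone, Wnt5a led at 5.77 ± 0.67 CPM per kb (SD, n = 3), followed by Wnt5b (1.16 ± 0.11), Wnt10b (0.991 ± 0.270), Wnt10a (0.694 ± 0.270), Wnt4 (0.537 ± 0.085) and Wnt9a (0.398 ± 0.061). Only Wnt5a lay outside the range of all other members there, and from Wnt5b downward each neighbour overlapped the next except Wnt4 and Wnt9a. In MatC the order was Wnt5a (31.2 ± 22.4), Wnt5b (16.5 ± 9.7), Wnt4 (13.7 ± 2.1), Wnt11 (2.71 ± 1.94), Wnt10b (1.11 ± 0.36) and Wnt9a (1.08 ± 1.13). Wnt5a and Wnt5b overlapped, as did Wnt5b and Wnt4, and all 3 lay above Wnt11. In ImC, Wnt4 (4.17 ± 2.6), Wnt5a (2.39 ± 2.25) and Wnt5b (1.31 ± 0.56) led, and all 3 overlapped.

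Summed over all 19 Wnt ligands, levels were 9.97, 9.99 and 10.6 CPM per kb in Bone, 91.5, 41.9 and 67.5 in MatC, and 11, 4.72 and 11.3 in ImC. Every MatC library was above every Bone and ImC library. ImC replicate 2, at 4.72, was below every Bone library, while ImC replicates 1 and 3 were slightly above them. Each ligand's share of that sum does not depend on how libraries are scaled. Wnt4 took 4.70% to 6.34% of the sum in Bone, 16.0% to 27.1% in MatC and 27.6% to 56.2% in ImC, with no overlap between tissues. Wnt10b took 7.05% to 12.4% in Bone, 0.901% to 3.61% in MatC and 0% to 0.37% in ImC, also without overlap. Wnt5a took 56.6% ± 6.26 in Bone, 43.5% ± 16.4 in MatC and 21.9% ± 19.9 in ImC (SD, n = 3). ImC replicate 2 held the lowest Wnt5a share, 2.02%. No test was run on these shares.

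**Figure D3:**
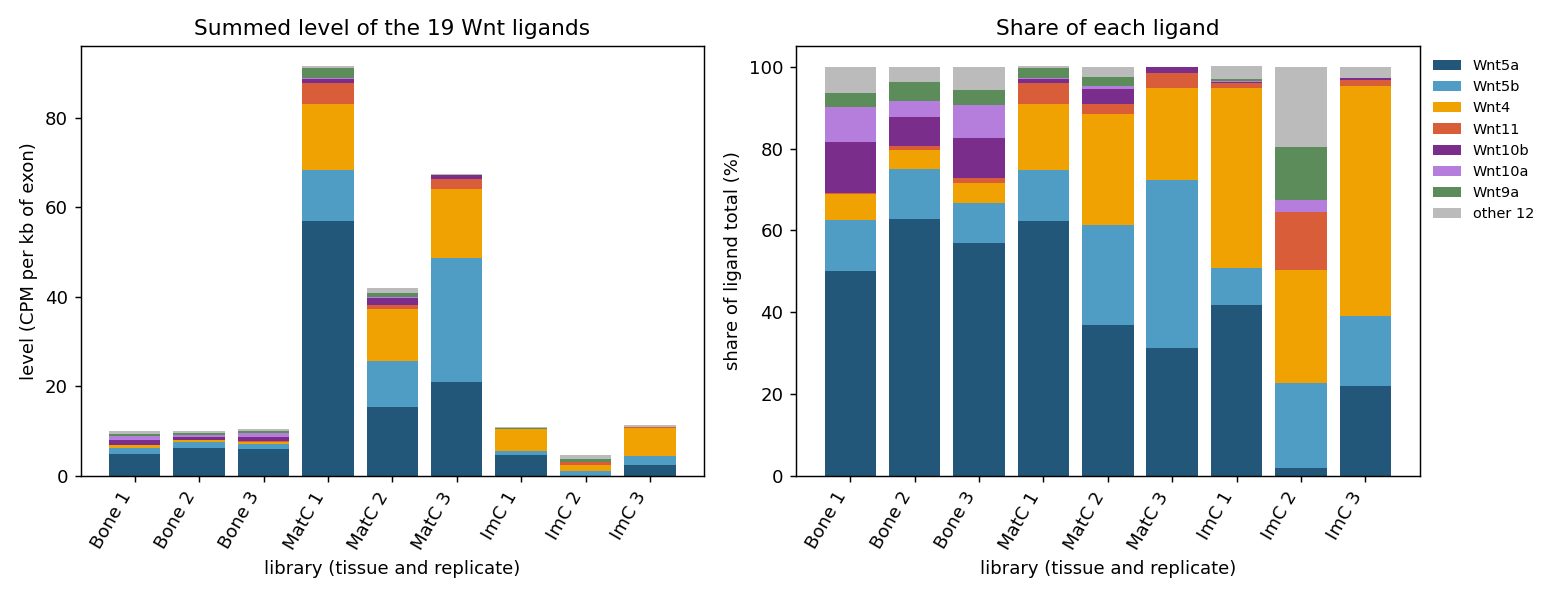
Left, summed level of the 19 Wnt ligands in each library (y axis, CPM per kb of exon, stacked by ligand); right, the share of each ligand in that sum (%). Bars are single libraries of Bone, MatC and ImC; the MatC sums of 41.9 to 91.5 stand above all others, and the Wnt4 share differs in each tissue.

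The genes whose log2 CPM followed a member most closely over the 9 libraries were taken for the 4 members with the smallest p. For Wnt4 they were Lims2, Zbtb20 and Slc44a2, with Pearson's r = 0.986, 0.981 and 0.977. For Wnt5b they were Pde11a, Sidt2 and Catsper4 (0.991, 0.987 and 0.984), for Wnt10b Bmp8a, Socs2 and Rhbdl2 (0.983, 0.983 and 0.982), and for Wnt11 Prom1, Svep1 and Ntrk2 (0.948, 0.948 and 0.946). Among members, r was 0.84 for Wnt5b with Wnt11, 0.81 for Wnt4 with Wnt5b, 0.74 for Wnt5a with Wnt10b and -0.70 for Wnt4 with Wnt10a. All of these describe 9 libraries that share 3 tissues and their depths.

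Of 10 Frizzled receptors, 0 were called between Bone and MatC by edgeR, 0 by DESeq2 and 0 by limma-voom, and 1 had an unadjusted p under 0.05. By edgeR, 2 rose and 1 fell in Bone against ImC, and 1 rose and 1 fell in MatC against ImC (list medians 0.48, 0.47 and 0.28 on the log2 scale, against -0.03, -0.02 and 0.03 over all genes). Over all genes tested, edgeR called 6.05% in Bone against MatC, 31.1% in Bone against ImC and 7.71% in MatC against ImC. These shares are the background for this list and every list below. Fzd5 averaged 45.3 ± 3.1 CPM in Bone, 8.97 ± 7.94 in MatC and 0.883 ± 0.852 in ImC, and rose by 5.67 ± 1.01 on the log2 scale in Bone relative to ImC (adjusted p = 0.00334). Fzd2 averaged 48.8 ± 0.5, 38.6 ± 20.9 and 133 ± 39.9 CPM in Bone, MatC and ImC, and fell by 1.78 ± 0.43 in MatC relative to ImC (adjusted p = 0.0354, up to 0.148 over alternatives). That Fzd2 call ended in 10 of 19 alternatives, among them leaving out any 1 Bone or ImC library. Of 6 co-receptors, edgeR called 0 between Bone and MatC, where 2 had an unadjusted p under 0.05. By edgeR, 0 rose and 2 fell in Bone against ImC, and 1 rose and 1 fell in MatC against ImC. Ror2, a receptor for Wnt5a, fell by 2.28 ± 0.35 in Bone relative to ImC (adjusted p = 0.0017) and by 1.37 ± 0.34 in MatC relative to ImC (adjusted p = 0.0394). The Bone call ended with library size only (adjusted p = 0.0921). Ror2 averaged 5.82 ± 1.51 CPM in Bone, 10.96 ± 2.86 in MatC and 28.4 ± 7.3 in ImC, so it was lower in MatC than in ImC, while Wnt5a stood highest in MatC. Ptk7, a polarity co-receptor, rose by 1.45 ± 0.38 in MatC relative to ImC (adjusted p = 0.0473). The MatC calls of Ror2 and Ptk7 ended in 12 of 19 alternatives each. Without any 1 library of the 9, adjusted p for Ror2 was above the threshold.

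Ligand export and cleavage genes differed most in Trabd2b, a membrane protease that cuts and inactivates Wnt proteins. It averaged 0.197 ± 0.078 CPM in Bone, 1.77 ± 1.54 in MatC and 94.9 ± 25.1 in ImC, and fell in both, with log2 fold changes of -8.90 ± 0.81 in Bone over ImC and -5.54 ± 0.66 in MatC over ImC (adjusted p = 0.000138 and 0.00246), called in each alternative. It was lower in Bone than in MatC by a log2 fold change of -3.35 ± 0.76 (adjusted p = 0.0304), with overlap and adjusted p up to 0.206. Wls, the carrier that brings Wnt proteins to the cell surface, averaged 149.6 ± 35.3 CPM in Bone, 57.5 ± 21.9 in MatC and 19.8 ± 14.7 in ImC, and rose by 2.92 ± 0.61 in Bone relative to ImC (adjusted p = 0.00691). Notum, an enzyme that strips the lipid from Wnt proteins, averaged 7.85 ± 2.63, 4.86 ± 2.91 and 0.585 ± 0.526 CPM and rose by 3.76 ± 0.76 in Bone relative to ImC and by 3.10 ± 0.75 in MatC relative to ImC (adjusted p = 0.0059 and 0.0353); the second call ended in 9 of 19 alternatives. Of the 4 genes in this list, 0 rose and 1 fell in Bone against MatC, 2 rose and 1 fell in Bone against ImC, and 1 rose and 1 fell in MatC against ImC.

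R-spondins amplify Wnt signals through Lgr receptors. Rspo3 stood at 1.84, 1.71 and 1.24 CPM in Bone, at 156, 42.6 and 29.4 CPM in MatC and at 6.42, 0.695 and 11.3 CPM in ImC. As with Wnt5a, MatC replicate 1 was the highest library and ImC replicate 2 the lowest of its group. Rspo3 fell by 5.57 ± 0.99 in Bone relative to MatC (adjusted p = 0.0116) and rose by 3.64 ± 0.89 in MatC relative to ImC (adjusted p = 0.0372). The first call ended without any 1 Bone library (adjusted p up to 0.0773) and the second also without ImC replicate 1, MatC replicate 1 or MatC replicate 2 (up to 0.11) and with only the groups compared (0.129). Lgr6 averaged 47.9 ± 6.3 CPM in Bone, 13.8 ± 7.2 in MatC and 0.37 ± 0.239 in ImC, and rose in MatC relative to ImC by 5.11 ± 0.58 (adjusted p = 0.00188). Of 9 genes in this list 7 were tested; 1 rose and 1 fell in Bone against MatC, 3 and 1 in Bone against ImC, and 2 and 0 in MatC against ImC.

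Among 11 tested secreted inhibitors of 13 listed, 1 rose and 1 fell in Bone against MatC, 5 and 2 in Bone against ImC, and 4 and 2 in MatC against ImC. By edgeR, Wif1 rose (log2 fold change 3.56, adjusted p = 0.0313) and Sfrp5 fell (-4.98, adjusted p = 0.0242) in Bone against MatC. The Wif1 call ended in 7 of 18 alternatives and the Sfrp5 call in 6 of 18. Dkk1, which blocks Lrp5 and Lrp6, averaged 144 ± 31.2 CPM in Bone, 21.7 ± 18.0 in MatC and 0.218 ± 0.191 in ImC. It rose by 9.22 ± 1.15 in Bone and by 6.52 ± 1.07 in MatC, both relative to ImC (adjusted p = 0.000617 and 0.0085). Its Bone over MatC value of 2.70 was not called by edgeR (adjusted p = 0.0779), though it was called in 4 of 19 alternatives. Sfrp5, which binds Wnt proteins, ran the other way, at 1 read in Bone, 25 in MatC and 1138 in ImC, and fell by 4.58 ± 0.71 in MatC relative to ImC (adjusted p = 0.00662). On the receiving side, Tcf7, a beta-catenin partner, averaged 67.7 ± 11.7 CPM in Bone, 23.5 ± 7.1 in MatC and 0.809 ± 0.202 in ImC. It rose by 4.87 ± 0.38 in MatC relative to ImC (adjusted p = 0.000368) and by 1.52 ± 0.31 in Bone relative to MatC (adjusted p = 0.0207, up to 0.116 without 1 Bone library). Of 13 tested Tcf/Lef factors and response genes, 1 rose and 0 fell in Bone against MatC, 3 and 2 in Bone against ImC, and 2 and 1 in MatC against ImC. Among those that fell by edgeR were Lef1 in Bone over ImC (log2 fold change -2.12, adjusted p = 0.0323) and Tcf7l1 in MatC over ImC (-1.24, adjusted p = 0.0491). The Lef1 call ended in 6 of 19 alternatives and the Tcf7l1 call in 14 of 19. Axin2, a direct target of beta-catenin, stood at 2.33, 2.57 and 4.28 CPM in Bone, at 10.2, 6.13 and 1.70 CPM in MatC and at 1.33, 1.69 and 2.35 CPM in ImC, with overlap between all tissues. Axin2 is named here outside the rule, after its values were seen.

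Of 12 genes of beta-catenin transduction, which pass the signal on inside the cell, 0 were called between Bone and MatC and 0 between MatC and ImC by edgeR, with list medians of 0.09 and 0.06. In each of these comparisons 2 had an unadjusted p under 0.05, DESeq2 called 1 and limma-voom called 0. Over all genes tested, edgeR called 6.05% and 7.71% there, so 0 calls among 12 genes do not set this list apart. By edgeR, 2 of the 12 rose and 1 fell in Bone against ImC. Ctnnb1, beta-catenin itself, averaged 703.5 ± 102 CPM in Bone, 332.8 ± 221 in MatC and 128.7 ± 94.9 in ImC, and rose by 2.45 ± 0.71 in Bone relative to ImC (adjusted p = 0.0251, up to 0.0907 over alternatives). Of 8 tested planar cell polarity genes, edgeR called 0 between Bone and MatC, where 3 had an unadjusted p under 0.05, DESeq2 called 2 (Celsr1 and Daam2) and limma-voom called 0. By edgeR, 2 rose and 2 fell in Bone against ImC, and 1 fell in MatC against ImC. Prickle1, a polarity gene, fell by 2.65 ± 0.40 in Bone and by 1.71 ± 0.39 in MatC, both relative to ImC (adjusted p = 0.00155 and 0.0286). The MatC call ended in 8 of 19 alternatives (adjusted p up to 0.123), among them leaving out ImC replicate 1, MatC replicate 1 or 2, or any 1 Bone library.

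**Figure D4:**
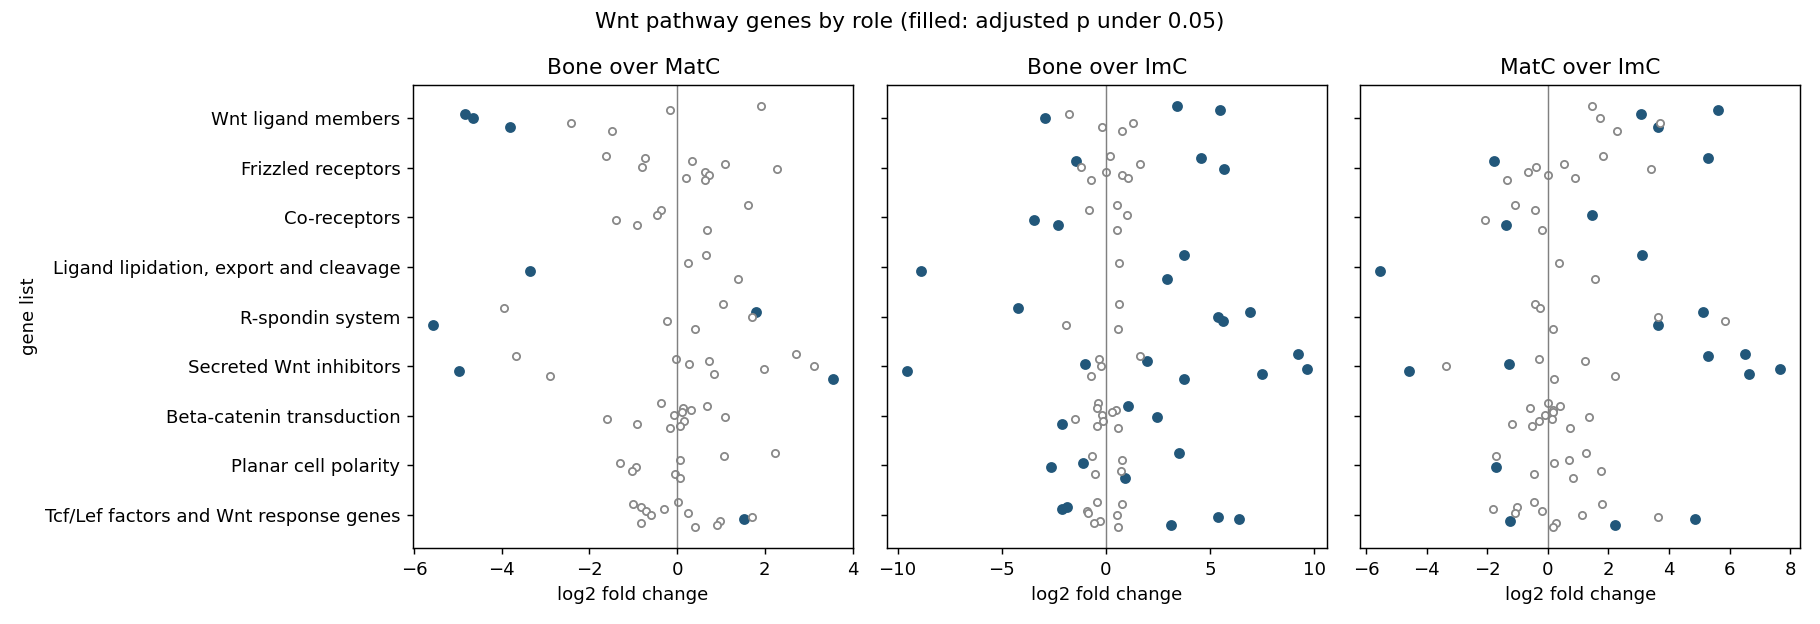
Log2 fold change (x axis) of each tested gene, by role in the Wnt pathway (rows), in Bone over MatC, Bone over ImC and MatC over ImC. Each point is a gene and filled points have an adjusted p under 0.05; no beta-catenin transduction gene is filled in Bone over MatC or MatC over ImC, while ligands reach -4.85 and 5.62.

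Markers of other cell types were set beside the ligands for all listed genes. Summed endothelial markers stood at 35.6 to 119 CPM in Bone, 11.6 to 206 in MatC and 1.69 to 9.90 in ImC, and macrophage and leukocyte markers at 27.2 to 67.7, 4.53 to 47.2 and 2.67 to 5.06. Osteoclast markers summed to 461 to 1010 CPM in Bone, 32.2 to 555 in MatC and 5.46 to 8.69 in ImC. In the same order, skeletal muscle sums were 0.599 to 44.8, 11.1 to 159 and 0.0833 to 4.34 CPM. Neural and Schwann sums were 4.71 to 9.15, 14 to 19 and 9.63 to 40.3 CPM. Keratinocyte and epithelial markers, a tissue in which Wnt4, Wnt10a and Wnt10b are also made, stood at 1.80 to 4.28 CPM in Bone, 0 to 14.6 in MatC and 0.833 to 1.79 in ImC, with Krt14 at 0 reads in Bone and Krt5 at 0 in ImC. In MatC replicate 3 all 8 epithelial markers were at 0 reads, and Wnt4 and Wnt10b stood there at 63.6 and 3.39 CPM. A count of 0 in MatC replicate 3 allows up to 0.849 CPM per gene (3 reads), so low epithelial levels could go unseen there. That library also had the lowest summed osteoblast and endothelial markers of the MatC libraries, 847 and 11.6 CPM, and the highest hypertrophic sum, 12600 CPM. The part of the other cell types in the ligand levels was not tested.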

How the data were processed

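RNA was measured in 9 libraries, 3 each of bone, mature and immature cartilage, grouped by their titles. Per the labels' protocols, purified RNA was treated with DNase, amplified once and made into Illumina TruSeq v2 libraries, which do not mark strand. The authors deposited whole-number read counts per gene symbol; per the submitters' processing notes, Trimmomatic 0.30, TopHat2, Bowtie2, HTSeq, edgeR and the mm10 genome were used, with roles not given in the sources used here. A second deposited table holds a score, counts scaled by 1 factor per library and rounded, which listed 7 of the 10 ligands; it gave an alternative scaling only.

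The main test was the quasi-likelihood F-test of edgeR 4.0.16 under R 4.3.3, after filterByExpr, using TMM (trimmed mean of M values) factors and a mean per tissue fitted to all 9 libraries. Benjamini-Hochberg adjustment ran over 14257 genes, and an adjusted p under 0.05 was called. Each SE was derived from the log2 fold change and its F statistic. CPM levels use TMM-scaled library sizes. Alternatives used DESeq2 1.42.0, limma 3.58.1, other scalings and filters, and each library left out. Lengths, coordinates and overlaps come from GENCODE M21 (GRCm38, which mm10 denotes). Intervals and floors cover counting error only, since amplified reads are not independent molecules. The procedure was also run on simulated data, in which all tissues shared the same scatter for each gene. Those data lack the unequal scatter of the real tissues, so they cannot show how the procedure performs on these libraries.

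All 10 members are named whatever their result. From each pathway list, up to 3 called genes per comparison with the smallest p, and those against the list's main direction, could be named. The members, lists and rule were chosen with earlier results of these data known.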

Additional observations from a re-analysis of the deposited data

How the results depend on the processing

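The count of called ligands was within 1.5 times its value of 3 in each comparison under most of 19 alternatives. For MatC against ImC it was 5 with no filter and 5 with DESeq2, where Wnt4 and Wnt5a joined. Leaving out 1 library gave 2 to 4 calls for MatC against ImC, 2 to 4 for Bone against MatC and 2 to 3 for Bone against ImC. Signs turned only for uncalled values: Wnt10b in Bone against MatC was 0.94 with library size only, 0.15 without MatC replicate 2 and 0.04 without Bone replicate 2 (leaving out 1 library gave -0.35 to 0.15), and Wnt5b in Bone against ImC was 0.40 with library size only and 0.24 without ImC replicate 3 (-0.34 to 0.24); the cause was not tested. With the replicate block, 4, 3 and 3 ligands were called in the same order of comparisons; Wnt4 and Wnt5a joined and Wnt11 dropped out in the first. Same-numbered deviations from the tissue means correlated at -0.131 to 0.24, and MatC replicate 1 followed ImC replicate 2 (0.36) more than ImC replicate 1 (0.228). Such correlations cannot decide whether libraries of the same number share an animal. Over all genes 1099, 863 and 4432 were called in those comparisons, against 358, 297 and 2073 with library size only, 2229, 1964 and 5627 with DESeq2, 1690, 1504 and 4802 with no filter, and 205, 1204 and 5225 with only the groups compared; the block gave 725 for the first. Without 1 library the counts ran from 355 to 1240, 167 to 1702 and 2343 to 5408. Factors read back from the authors' table, chosen after seeing the data, ended the Wnt11 call for MatC against ImC (edgeR adjusted p = 0.0536). Of 54 pathway calls, 18 in MatC against ImC, 6 in Bone against MatC and 30 in Bone against ImC, 5, 0 and 15 held in every alternative that gave a value. Taking the longest transcript in place of all exons kept the order of the leading 6 ligands in each tissue. Depth limits Wnt1, Wnt2b, Wnt7b, Wnt9a and Wnt10a most, above all in MatC replicate 3.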

Other observations

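Ligand genes outside the 10 members were sparse. Wnt3a, Wnt7a and Wnt8a had 0 reads in every library, Wnt8b 3 reads and Wnt9b 1 read, all in MatC replicate 2. Wnt2, a canonical ligand, held 3, 0 and 2 reads in Bone, 1, 0 and 0 in MatC and 5, 26 and 0 in ImC, so most of its reads came from ImC replicate 2, the library that was also highest in Wnt9a and Wnt11 within its group. Wnt16, a ligand of bone and joints, held 5, 7 and 9 reads in Bone, 5, 33 and 0 in MatC and 0, 10 and 0 in ImC. None of the 9 passed the filter on low counts.

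Several ligand genes lie side by side. Wnt6 and Wnt10a are 6.2 kb apart on chromosome 1, and both were highest in Bone. Wnt6 held 13, 4 and 9 reads there, 0 in every MatC library and 0, 6 and 0 in ImC. Pooled, Bone stood at 5.59 times a floor of 3 reads over the MatC libraries. That ratio takes the Bone reads as exact and is not a lower limit. Wnt10b and Wnt1 are 11.7 kb apart on chromosome 15, yet Wnt10b held 168 reads in Bone where Wnt1 held 1. Wnt9a and Wnt3a are 16.2 kb apart on chromosome 11, and Wnt9a held 250 reads over the 9 libraries where Wnt3a held 0. Whether neighbours share control was not tested.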
